A study of Mus musculus with 12 samples.

Results

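Immediate early and activity-induced genes were followed through hippocampus and prefrontal cortex of irradiated and control mice. The set was chosen by name, with earlier results of these data known. It holds 35 genes, 17 transcription factors and 18 effectors, of the 23183 genes listed for each library. All 35 were found. RNA came from 6 male mice of the inbred strain C57BL/6, with no other allele named in the labels. In 3 of them the abdomen had been exposed to X-rays, at 13 Gy by the library names, to injure the gut lastingly, and 3 were left without irradiation. Both regions of every mouse were sequenced, so that 12 libraries fell into 4 groups of 3: hippocampus irradiated, hippocampus control, prefrontal cortex irradiated and prefrontal cortex control. Tissue was taken in the chronic phase, and the sources used here give neither the time after irradiation nor the age of the mice.

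Immediate early genes are transcribed within minutes of a stimulus, before any new protein is made, when calcium entry and kinase cascades activate factors such as CREB and SRF that already sit at their promoters. Some encode transcription factors of the FOS, JUN, EGR, NR4A and NPAS4 families, which then switch on later genes. Others encode effectors that act directly at synapses or on signalling, such as Arc at glutamatergic synapses and the DUSP phosphatases that switch MAP kinases off. In the brain their RNA is widely used as a trace of recent neuronal activity, and stress, novelty and handling also induce them.

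CREB is known to bind the cAMP response element, searched as TGACGTCA and in its short form TGACG, and SRF the CArG box, while EGR proteins bind GCGTGGGCG. RefSeq promoter windows (from 250 bases before to 50 after a transcript's start, build GRCm38.p6) were at hand for 26 of the 35 members, with 33 windows in all. The stretches below are those of Dusp5 and Maff, which stood higher in all irradiated libraries of both regions, and of Fos. Those of Nr4a1 and Nr4a3, relatives that differed between the regions in opposite directions, are also given. Fosl2, which stood higher in both regions as well, had no motif match among the windows at hand and is not shown. They run 5′ to 3′ on the gene's strand, which is plus for all of them. Capitals mark matches to the motifs, TGACG appearing as CGTCA where it lies on the other strand.
Dusp5: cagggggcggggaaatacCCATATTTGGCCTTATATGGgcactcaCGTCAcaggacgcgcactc
Maff: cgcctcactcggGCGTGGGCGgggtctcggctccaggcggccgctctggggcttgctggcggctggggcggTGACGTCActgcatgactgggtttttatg
Fos: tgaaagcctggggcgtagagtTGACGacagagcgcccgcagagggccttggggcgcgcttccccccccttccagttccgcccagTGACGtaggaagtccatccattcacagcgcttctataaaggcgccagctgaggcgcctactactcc
Nr4a1: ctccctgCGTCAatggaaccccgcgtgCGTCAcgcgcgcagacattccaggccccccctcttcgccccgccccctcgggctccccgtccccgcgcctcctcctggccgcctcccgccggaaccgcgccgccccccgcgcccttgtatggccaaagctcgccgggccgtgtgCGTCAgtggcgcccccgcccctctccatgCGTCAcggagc
Nr4a3: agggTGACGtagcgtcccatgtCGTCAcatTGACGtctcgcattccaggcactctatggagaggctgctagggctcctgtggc

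The Dusp5 stretch (chr19:53529045-53529108) holds a pair of adjoining CArG boxes at -82 to -73 and -72 to -63 from the transcript start, followed by a short cAMP response element at -55 to -51. The Maff stretch (chr15:79347420-79347519) holds an EGR site at -88 to -80 and a full cAMP response element at -29 to -22. It lies inside the Maff gene, upstream of a start that is not the gene's first. The Fos stretch (chr12:85473740-85473889) holds short cAMP response elements at -129 to -125 and -66 to -62. In Nr4a1 (chr15:101266606-101266816), where the start is also an internal one, and in Nr4a3 (chr4:48045070-48045152), several short elements stood in the same window. None of these stretches overlapped an exon of its own gene in GENCODE M21. Both strands were searched, and every full element also contains the short one. The short element lay in 19 of the 33 member windows, 57.6%, belonging to 16 members, against 20.8% of the 32851 windows of all genes. The full element lay in 3 member windows (Btg2, Dusp1 and Maff), against 1.79% of all. CArG boxes lay in 5 member windows (Dusp5 and the windows of Egr2), against 1.63% of all. The EGR site lay in 1, that of Maff, against 0.612% of all, and the AP-1 site TGANTCA in 0, against 7.81% of all. A match describes the letters in a window and is not evidence of binding.

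Values below are FPKM, which count fragments per transcript kilobase against the total of the library, so levels of different genes can be set side by side per length. Differences are log2 differences on the log2(FPKM + 1) scale with their SE, which understates the change of genes near 1 FPKM. They were tested with limma over all genes that averaged 1 FPKM or more, and a gene was called at a Benjamini-Hochberg adjusted p under 0.05. Between 12640 and 12967 genes reached 1 FPKM in a library, and depth, estimated from the values, was 15.9 to 19.1 M (mega) fragments. Most markers separated the regions. The 10 genes of the hippocampal subfields summed to 266 to 298 FPKM in hippocampus and to 174 to 192 FPKM in the cortical libraries. The 10 cortical layer genes summed to 71.7 to 92.9 and 208 to 259 FPKM. In control mice 7 subfield genes were called higher in hippocampus and 1 lower, with negative differences for Calb1, Mpped1 and Wfs1. Of the layer genes 9 were called lower, and Fezf2 alone was positive, at 0.37. Of all genes 15.7% were called higher and 14.6% lower. Hippocampus irradiated 2 stood apart in choroid plexus genes, which summed to 65.6 FPKM there and to 3759 FPKM or more in every hippocampal control. Replicates are different mice. In such bulk tissue, fewer cells of a type and less RNA per cell cannot be told apart.

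In control mice the members spanned a wide range. Nrn1, which encodes the neuronal growth protein neuritin, was highest in both regions, with 153 ± 12.2 FPKM in hippocampus and, in prefrontal cortex, 121 ± 5.32 FPKM (SD, n = 3). Jund followed in both, at 74.1 ± 1.97 and 90.7 ± 5.14 FPKM. At the other end Fosl1, a FOS relative, was listed at 0 in 9 of the 12 libraries and came to at most 2 estimated fragments, and Atf3, a stress-induced factor, to 4 to 25 fragments. Neither was abundant enough to be tested in any comparison, nor was Maff, while Pim1 was tested in prefrontal cortex alone and Egr2 in every comparison but that within hippocampus.

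No member was called between irradiated and control hippocampus. Of 30 members tested, 0 passed, as did 0 of all 12947 genes (0%). At an unadjusted p under 0.05, 5 members were higher (Fosl2, Nr4a2, Egr1, Fosb and Dusp5) and 0 lower. Of all genes 10.5% passed that level, 4.7% higher and 5.81% lower. All irradiated libraries lay above all controls in 5 of those tested, Fosl2, Nr4a2, Egr1, Dusp5 and Inhba, and below them in 0, where 15.6% of all genes were so separated, 7.41% above and 8.16% below. Differences were positive in 17 members and negative in 13, where 47% of all genes were positive, with a median of 0.02 beside -0.01 over all genes. With the libraries scaled to equal totals, which moved the median of all genes to 0.07, 24 were positive and 6 negative. The transcription factors had a median of 0.13, with 10 of 13 positive, and the effectors -0.04, with 7 of 17 positive.

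In prefrontal cortex 0 of 32 members tested were called, beside 1 of all 12729 genes (0.00786%). At an unadjusted p under 0.05, 7 members were higher (Nr4a3, Ier5, Dusp5, Dusp6, Egr1, Dusp4 and Fosl2) and 1 was lower (Pim1). Of all genes 7.23% passed that level, 2.44% higher and 4.79% lower. Pim1 met the filter on level only through its controls, which averaged 1.27 FPKM against 0.857 FPKM in irradiated mice. The irradiated libraries lay above the controls without overlap in 6 members, Nr4a3, Ier5, Dusp5, Dusp6, Dusp4 and Fosl2, and below them in Pim1 alone, where 13.7% of all genes were so separated, 6.25% above and 7.44% below. Differences were positive in 21 members and negative in 11, where 51.2% of all genes were positive, with a median of 0.05 beside 0.00 over all genes. Equal totals, which moved the median of all genes to 0.07 here too, gave 26 positive and 6 negative. Fosl2 and Dusp5 lay above the controls without overlap in both regions, 2 of 30 members tested in both, where 1.24% of all genes did.

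**Figure D1:**
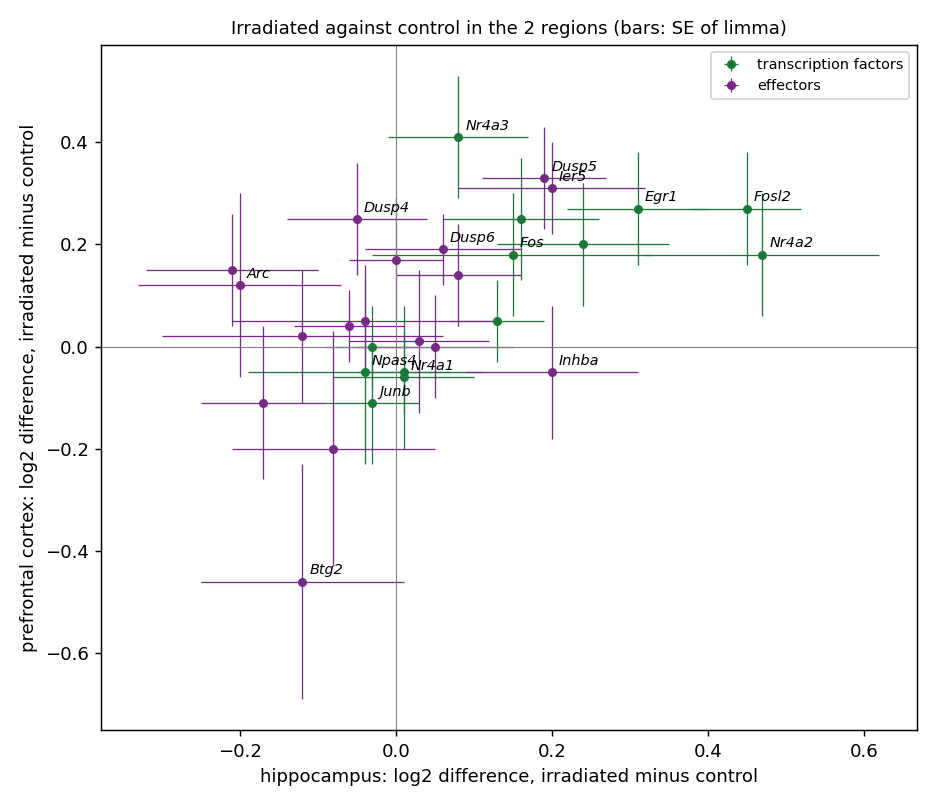
Log2 differences between irradiated and control mice in hippocampus (horizontal axis) and prefrontal cortex (vertical axis) for the 30 members tested in both regions, on the log2(FPKM + 1) scale, with bars for the SE of limma and colours for the role. Differences were positive in both regions for 13 members, Fosl2 and Egr1 among them, negative in both for 5, and of opposite sign for the other 12, where 32.6% of all genes were positive in both, and no member passed the test in either region.

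The FOS and JUN families form the AP-1 dimers. Fosl2, a FOS relative that is more lasting than Fos itself, stood at 14.5, 14.7 and 13.8 FPKM in irradiated hippocampus and at 9.94, 11.1 and 9.70 FPKM in control hippocampus. In prefrontal cortex it stood at 10.3, 8.08 and 9.25 FPKM in irradiated and at 8.05, 8.05 and 6.35 FPKM in control mice. The groups did not overlap in either region, though the lowest irradiated and highest control values of prefrontal cortex nearly met. The difference was 0.45 ± 0.07 in hippocampus (limma, adjusted p = 0.265) and 0.27 ± 0.11 in prefrontal cortex (adjusted p = 0.649). Without irradiated replicate 2, whose choroid plexus genes were low, the hippocampal difference was 0.43, and the cortical one was 0.17 without control replicate 3.

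Fos itself, the factor most used to mark active neurons, stood at 7.05, 6.90 and 4.99 FPKM in irradiated and at 6.09, 6.78 and 4.04 FPKM in control hippocampus. In prefrontal cortex it stood at 16.5, 12.7 and 13.3 FPKM and at 13.2, 13.5 and 10.5 FPKM. The mouse numbered 3 was lowest in 3 of the 4 groups, and irradiated and control values overlapped in both regions. The differences of 0.15 ± 0.18 and 0.18 ± 0.12 did not pass (adjusted p = 0.746 and 0.806), and both depended on single libraries. The hippocampal one was 0.08, 0.09 and 0.29 without irradiated replicates 1, 2 and 3, and 0.28 and -0.04 without control replicates 2 and 3. The cortical one was 0.07 without irradiated replicate 1 and 0.07 without control replicate 3. Fosb, its close relative, differed by 0.24 ± 0.11 in hippocampus and 0.20 ± 0.12 in prefrontal cortex, with overlap in both.

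Junb, a JUN relative induced together with Fos, stood at 34.2, 32.7 and 31.9 FPKM in irradiated and 34.8, 34.7 and 31.4 FPKM in control hippocampus. Its values in prefrontal cortex were 57.9, 43.1 and 42.4 FPKM in irradiated and 53.8, 52.4 and 47.5 FPKM in control mice. Irradiated mouse 1 was the highest and irradiated mice 2 and 3 the lowest of all 6 there. The differences, -0.03 ± 0.06 and -0.11 ± 0.12, did not pass, and the hippocampal one was 0.06 with equal totals. The cortical one was -0.25, -0.05 and -0.03 without irradiated replicates 1, 2 and 3. Jun, the main partner of Fos, stood at 33.0, 37.7 and 37.3 FPKM in irradiated and 35.5, 34.3 and 36.9 FPKM in control hippocampus, against 16.6, 14.6 and 15.2 FPKM and 17.1, 14.7 and 16.5 FPKM in prefrontal cortex. Every hippocampal value lay far above every cortical one, and treatment groups overlapped in both regions. Jund, the JUN factor least dependent on stimulation, differed by -0.03 ± 0.06 and 0.00 ± 0.08 between treatments.

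Maff, a small MAF protein that lacks an activation domain and partners other leucine zipper factors, was scarce. It stood at 0.78, 0.715 and 1.33 FPKM in irradiated and at 0.618, 0.42 and 0.528 FPKM in control hippocampus. In prefrontal cortex the irradiated mice had 0.852, 0.807 and 1.07 FPKM and the controls 0.439, 0.446 and 0.335 FPKM. All irradiated values lay above all controls of their region, on 13 to 49 estimated fragments a library. Maff was below the level needed for the test. Without that filter the difference was 0.34 ± 0.13 in hippocampus (limma, adjusted p = 0.569) and 0.44 ± 0.07 in prefrontal cortex (adjusted p = 0.391).

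**Figure D2:**
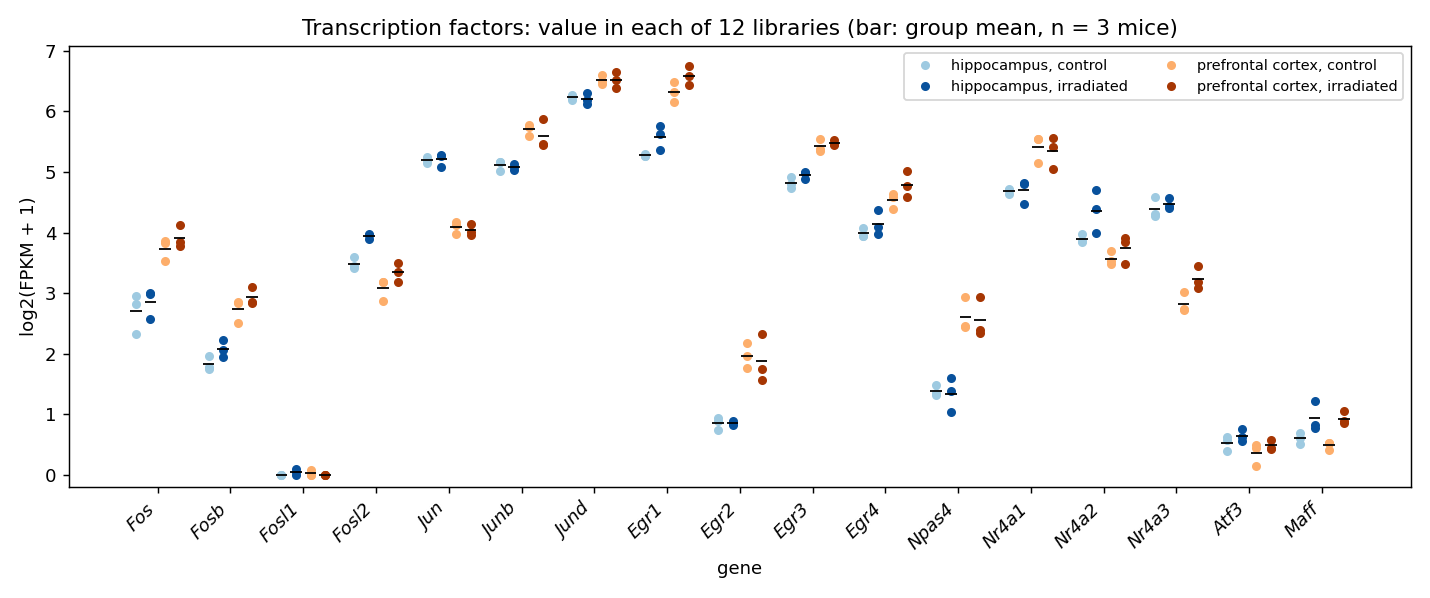
Level of the 17 transcription factors, as log2(FPKM + 1) on the vertical axis, in each of the 12 libraries, with a point per mouse, a colour per group and a bar at the group mean (n = 3). Fosl2 and Maff lie higher in irradiated than in control mice in both regions without overlap, while Jun and Nr4a3 lie higher and Egr1, Egr2 and Npas4 lower in hippocampus than in prefrontal cortex.

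The EGR family are zinc finger factors, of which Egr1 is the most abundant in forebrain neurons. Egr1 stood at 53.1, 48.4 and 40.3 FPKM in irradiated and at 37.4, 38.4 and 37.5 FPKM in control hippocampus. The controls lay within about 1 FPKM of each other, and all irradiated values were above them. In prefrontal cortex Egr1 stood at 106, 94.4 and 85.4 FPKM in irradiated and at 88.6, 79.0 and 69.8 FPKM in control mice, where the lowest irradiated value lay below the highest control. The differences were 0.31 ± 0.09 (limma, adjusted p = 0.475) and 0.27 ± 0.11 (adjusted p = 0.609), and the cortical one was 0.18 without control replicate 3. Egr2, which is scarce in hippocampus, stood there at 0.863, 0.78 and 0.805 FPKM in irradiated and 0.862, 0.923 and 0.677 FPKM in control mice. Its values in prefrontal cortex were 4.01, 1.98 and 2.35 FPKM and 3.54, 2.89 and 2.39 FPKM, and treatment groups overlapped in both regions. Egr3 and Egr4, both induced together with Egr1, differed by 0.13 ± 0.06 and 0.16 ± 0.10 in hippocampus and by 0.05 ± 0.08 and 0.25 ± 0.12 in prefrontal cortex, with overlap throughout.

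Npas4 is a factor induced by calcium entry in neurons and little by other stimuli. It stood at 2.03, 1.61 and 1.06 FPKM in irradiated and 1.79, 1.56 and 1.49 FPKM in control hippocampus. In prefrontal cortex its values were 6.66, 4.06 and 4.26 FPKM and 6.68, 4.48 and 4.43 FPKM. The mouse numbered 1 was highest in each of the 4 groups, and irradiated mice held both the highest and the lowest value in hippocampus. The differences of -0.04 ± 0.15 and -0.05 ± 0.18 did not pass, and each became 0.01 with equal totals.

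The NR4A factors are orphan nuclear receptors that act without a known ligand. Nr4a2, also a factor of dopaminergic neurons, stood at 24.9, 19.9 and 15 FPKM in irradiated and at 13.3, 13.6 and 14.7 FPKM in control hippocampus. Its values in prefrontal cortex were 14.1, 13.3 and 10.2 FPKM and 10.2, 11.9 and 10.5 FPKM. The irradiated hippocampi spread widely, from just above the highest control to far above it, and the cortical groups overlapped. The differences were 0.47 ± 0.15 (limma, adjusted p = 0.475) and 0.18 ± 0.12 (adjusted p = 0.804). The hippocampal difference was 0.30 without irradiated replicate 1 and 0.65 without irradiated replicate 3.

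Nr4a3 stood at 22.8, 20.8 and 20.2 FPKM in irradiated and 18.9, 18.3 and 23.0 FPKM in control hippocampus, where the groups overlapped. In prefrontal cortex it stood at 9.92, 7.49 and 8.13 FPKM in irradiated and 5.64, 7.10 and 5.69 FPKM in control mice, without overlap. The difference was 0.08 ± 0.09 in hippocampus (limma, adjusted p = 0.726) and 0.41 ± 0.12 in prefrontal cortex (adjusted p = 0.47). Nr4a1 stood at 26.8, 27.2 and 21.2 FPKM in irradiated and 25.4, 24.0 and 24.9 FPKM in control hippocampus, and at 46.3, 41.6 and 32.1 FPKM and 45.4, 45.4 and 34.4 FPKM in prefrontal cortex. The mouse numbered 3 was the lowest in both cortical groups. The differences of 0.01 ± 0.09 and -0.06 ± 0.14 did not pass, and the cortical one was 0.01 with equal totals.

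Among the effectors that act at synapses, Arc encodes a capsid-like protein that promotes removal of AMPA receptors. It stood at 44.7, 40.0 and 33.4 FPKM in irradiated and 51.6, 46.0 and 38.5 FPKM in control hippocampus. Its values in prefrontal cortex were 81.1, 66.2 and 50.1 FPKM and 72.7, 59.9 and 47.8 FPKM. Mouse 1 was highest and mouse 3 lowest in all 4 groups, and treatment groups overlapped in both regions. The difference was -0.20 ± 0.13 in hippocampus and 0.12 ± 0.18 in prefrontal cortex (limma, adjusted p = 0.561 and 0.912), and both depended on single libraries. The hippocampal one was -0.09 without irradiated replicate 3, -0.10 without control replicate 1 and -0.31 without control replicate 3. The cortical one was -0.04 and 0.30 without irradiated replicates 1 and 3, and 0.27 and -0.03 without control replicates 1 and 3.

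Inhba, which encodes the activin A subunit, stood at 1.34, 1.37 and 1.47 FPKM in irradiated and 1.04, 0.91 and 1.31 FPKM in control hippocampus, without overlap. In prefrontal cortex it stood at 2.37, 2.59 and 2.11 FPKM and 3.09, 2.28 and 2.08 FPKM, with overlap. The differences were 0.20 ± 0.11 and -0.05 ± 0.13 (limma, adjusted p = 0.521 and 0.95). The pentraxin Nptx2, which clusters AMPA receptors, Nrn1 and Rheb, the GTPase that activates mTORC1, overlapped in both regions. Their differences ran from -0.06 to 0.05 in hippocampus and from 0.00 to 0.17 in prefrontal cortex.

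The dual specificity phosphatases are feedback inhibitors of MAP kinases. Dusp5, which acts on ERK in the nucleus, stood at 8.51, 10 and 10.2 FPKM in irradiated and 7.95, 8.44 and 8.40 FPKM in control hippocampus. In prefrontal cortex it stood at 5.19, 5.51 and 4.64 FPKM in irradiated and 3.68, 4.32 and 3.59 FPKM in control mice. No irradiated value reached down to a control in either region, though irradiated mouse 1 came close in hippocampus. The differences were 0.19 ± 0.08 (limma, adjusted p = 0.475) and 0.33 ± 0.10 (adjusted p = 0.488). The hippocampal value was 0.16 without irradiated replicate 2.

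Dusp4, another nuclear phosphatase, stood at 7.75, 6.56 and 6.39 FPKM in irradiated and 7.09, 6.62 and 7.88 FPKM in control hippocampus, and at 2.85, 3.14 and 3.02 FPKM and 2.56, 1.96 and 2.60 FPKM in prefrontal cortex. Groups overlapped in hippocampus and not in prefrontal cortex. The differences were -0.05 ± 0.09 and 0.25 ± 0.11 (limma, adjusted p = 0.83 and 0.647), and the cortical one was 0.16 without control replicate 2. Dusp6, which holds ERK in the cytoplasm, stood at 22.5, 22.3 and 21.6 FPKM and 20.2, 18.7 and 25.2 FPKM in irradiated and control hippocampus, and at 25.1, 23.8 and 23.6 FPKM and 20.3, 22.1 and 20.9 FPKM in prefrontal cortex. The groups were again apart in prefrontal cortex alone, by 0.19 ± 0.07 (adjusted p = 0.59), beside 0.06 ± 0.10 in hippocampus. Dusp1 differed by 0.03 ± 0.09 and 0.01 ± 0.14.

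Of the small IER proteins, Ier5, a regulator of heat shock responses, stood at 18.5, 16.7 and 12.9 FPKM in irradiated and 13.8, 14.6 and 12.7 FPKM in control hippocampus, with overlap. Its values in prefrontal cortex were 38.0, 32.6 and 30.7 FPKM in irradiated and 26.9, 26.7 and 27.4 FPKM in control mice, without overlap. The controls were tightly grouped and the irradiated mice spread above them. The differences were 0.20 ± 0.12 (limma, adjusted p = 0.547) and 0.31 ± 0.09 (adjusted p = 0.47). Ier2 and Ier3 overlapped in both regions, with differences of -0.08 and -0.04 in hippocampus and -0.20 and 0.05 in prefrontal cortex.

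Pim1, a survival kinase, was the 1 member with irradiated values below all controls, in prefrontal cortex, where it stood at 0.965, 0.738 and 0.868 FPKM in irradiated and 1.38, 0.976 and 1.46 FPKM in control mice. The highest irradiated and lowest control values almost touched. The difference was -0.28 ± 0.12 (limma, adjusted p = 0.667). Pim1 could be tested there only through the level of its controls. In hippocampus, where Pim1 was below the level for testing, values of 0.687, 0.811 and 0.481 FPKM and of 0.689, 0.486 and 0.801 FPKM overlapped. Btg2 and Gadd45b, which restrain proliferation or act on DNA repair and demethylation, Gadd45g, the prostaglandin synthase Ptgs2 and the ubiquitin ligase Siah2 overlapped in both regions. Btg2 had the lowest cortical difference of any member, -0.46 ± 0.23 (adjusted p = 0.718), with control 1 at 11.5 FPKM and the other 2 controls at 6.00 and 5.37 FPKM.

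**Figure D3:**
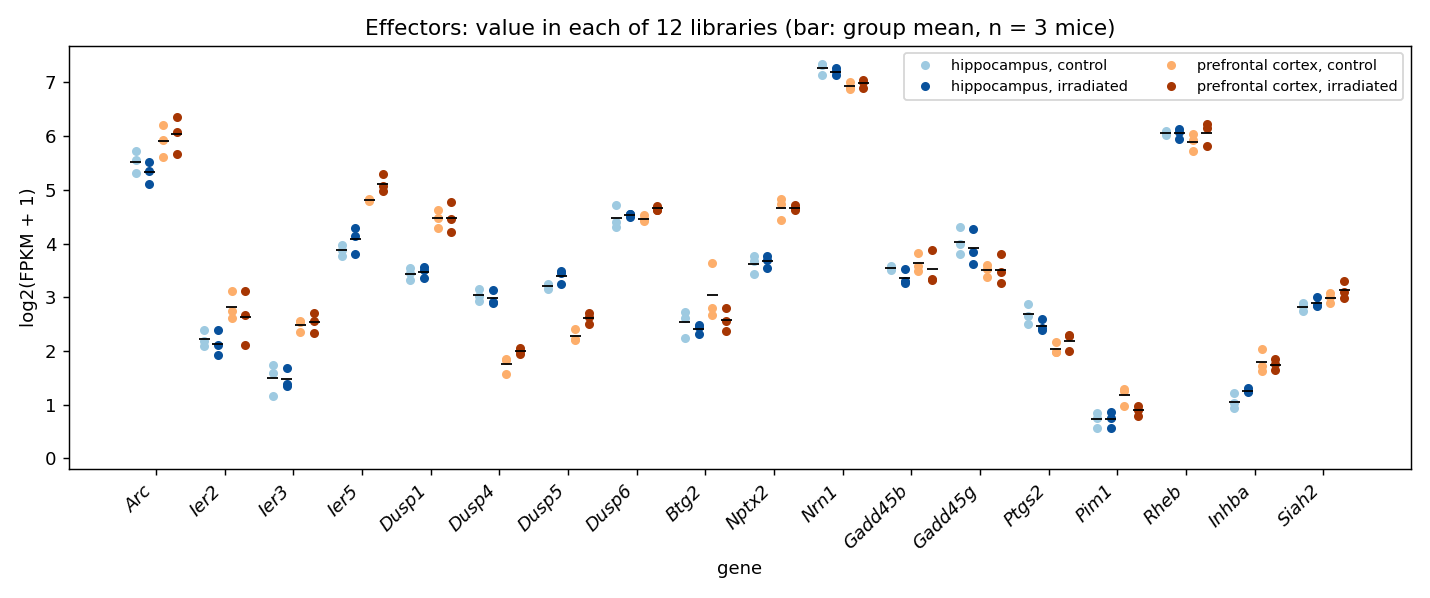
Level of the 18 effectors, as log2(FPKM + 1) on the vertical axis, in each of the 12 libraries, with a point per mouse, a colour per group and a bar at the group mean (n = 3). Dusp5 lies higher in irradiated mice without overlap in both regions, while Ier5, Dusp4 and Dusp6 do so without overlap in prefrontal cortex alone. Arc spreads widely within every group.

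Averaging both regions of a mouse gave 0 calls among 31 members tested, beside 1 of 12894 genes (0.00776%). At an unadjusted p under 0.05, 6 members were higher (Fosl2, Dusp5, Egr1, Nr4a3, Ier5 and Nr4a2), and 0 were lower, where 4.04% of all genes were higher and 6.07% lower. Fosl2 had the smallest p, with a difference of 0.36 ± 0.08 (limma, adjusted p = 0.355), followed by Dusp5 at 0.26 ± 0.07 (adjusted p = 0.384). In the test of whether the effect of irradiation differed between the regions, 0 of 31 members were called, as were 0 of 12894 genes (0%). At an unadjusted p under 0.05, 2 members had lower effects in hippocampus, Dusp4 (-0.31 ± 0.14) and Ptgs2 (-0.36 ± 0.16), where 1.35% of all genes had lower ones, and both had an adjusted p = 1. The regions share mice, so their results are not independent, and the test of the difference had no term for the mouse. Within a mouse, hippocampus minus prefrontal cortex was lower in all irradiated than in all control mice for 3 members, Arc, Dusp4 and Ptgs2. It was higher for 1 tested member, Nr4a2. Of all 12894 genes, 691 were so separated below and 624 above.

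Endothelial markers stood higher in irradiated mice, though none was called. The 10 endothelial markers summed to 95.9 to 111 FPKM in irradiated and 50.7 to 72.6 FPKM in control hippocampus, and to 111 to 126 and 88.2 to 100 FPKM in prefrontal cortex, with 0 markers at 0. All 10 had positive differences in both regions, with medians of 0.56 and 0.15, where 47% and 51.2% of all genes were positive. At an unadjusted p under 0.05 in limma, 7 were higher in hippocampus and 2 in prefrontal cortex, Ly6a (0.53) and Ly6c1 (0.48). Of all genes 4.7% and 2.44% were higher at that level. The other cortical differences of these markers ran from 0.01 for Slco1a4 to 0.28 for Esam. Neuronal markers summed to 2498 to 2657 and 2455 to 2629 FPKM in hippocampus, and to 3153 to 3353 and 3076 to 3258 FPKM in prefrontal cortex. Oligodendrocyte markers summed lower in irradiated mice, at 2033 to 2157 against 2221 to 2726 FPKM in hippocampus and at 1415 to 1567 against 1665 to 1816 FPKM in prefrontal cortex. Of these 8 markers 0 were called, and 4 were lower in each region at an unadjusted p under 0.05 in limma. Of all genes 5.81% and 4.79% were lower at that level. Opalin alone was positive, at 0.12 in prefrontal cortex. In hippocampus, microglia markers summed to 197 to 216 FPKM in irradiated and 219 to 228 FPKM in control mice. In prefrontal cortex they summed to 187 to 210 and 197 to 221 FPKM. Of these 8 markers 3 were lower in hippocampus at an unadjusted p under 0.05 in limma, and 0 in prefrontal cortex. Sums of the 8 astrocyte markers overlapped between treatments in both regions, with 2 markers lower at that level in each. Whether these shifts have a part in the values of Fosl2, Dusp5, Maff or Egr1 was not tested.

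Between the regions the members differed widely. In control mice 25 of 31 tested members were called, 9 higher and 16 lower in hippocampus, where 30.3% of all 12923 genes were called, 15.7% higher and 14.6% lower. All 14 transcription factors tested were among them. Nr4a3 (1.56 ± 0.11), Jun (1.10 ± 0.07), Fosl2 (0.41 ± 0.10) and Nr4a2 (0.32 ± 0.08) were higher in hippocampus. The other 10 were lower, led by Npas4 (-1.23 ± 0.14), Egr2 (-1.10 ± 0.13), Egr1 (-1.04 ± 0.08) and Fos (-1.03 ± 0.16), with limma adjusted p-values from 2.23e-05 for Egr1 to 0.0011 for Fos. Egr2 met the filter on level only through prefrontal cortex, with a mean of 2.94 FPKM there and 0.821 FPKM in hippocampus. The NR4A family was split, with Nr4a1 lower at -0.72 ± 0.10 (adjusted p = 0.000713) and Nr4a3 higher (adjusted p = 9.98e-06). So was AP-1, with Jun higher (adjusted p = 6.72e-06) and Fosb (-0.90), Junb (-0.59) and Jund (-0.29) lower. The calls of Fosl2 and Nr4a2 depended on the fit: Fosl2 was at 0.36 (adjusted p = 0.0621) without hippocampus control replicate 2, and Nr4a2 at 0.28 (adjusted p = 0.0515) without hippocampus control replicate 3, with an adjusted p = 0.12 in a fit over all 12 libraries.

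Among the effectors, 5 were higher in hippocampus of control mice and 6 lower. Dusp4 (1.28 ± 0.11, adjusted p = 2.54e-05) and Dusp5 (0.93 ± 0.09, adjusted p = 5.21e-05 in limma) were higher, together with Ptgs2 (0.64), Gadd45g (0.53) and Nrn1 (0.33). Their relative Dusp1 was lower, at -1.03 ± 0.10 (adjusted p = 6.54e-05), and Dusp6 did not pass, at 0.01 ± 0.10. Nptx2 (-1.04), Ier3 (-0.98), Ier5 (-0.93), Inhba (-0.73) and Ier2 (-0.61) were also lower. Arc was at -0.39 ± 0.15 (adjusted p = 0.0801) and Btg2 at -0.51 ± 0.24 (adjusted p = 0.139), and with the mouse as a block both passed (adjusted p = 0.00168 and 0.0159).

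In irradiated mice 23 of 31 members were called, 7 higher and 16 lower, where 29.2% of all 12878 genes were called, 13.9% higher and 15.3% lower. The same way in both treatments were 22 of 31 members, 7 higher and 15 lower, where 22.1% of 12740 genes were. Arc was called in irradiated mice alone, at -0.71 ± 0.17 (limma, adjusted p = 0.0166), with an adjusted p = 0.0519 (-0.60) without hippocampus irradiated replicate 3. Ptgs2, Gadd45g and Ier2 passed in control mice alone, with 0.28, 0.39 and -0.49 in irradiated mice, and Ier2 passed there with the mouse as a block (adjusted p = 0.0484), as did Siah2 (-0.24, adjusted p = 0.033). The test of the difference between the treatments, fitted without a term for the mouse, gave adjusted p = 1 for each of these genes. Jund, Nr4a2 and Nrn1 lost their calls in irradiated mice when single libraries were left out. Jund had adjusted p-values of 0.0666 and 0.0685 without hippocampus irradiated 2 or 3 and of 0.0759 and 0.0639 without prefrontal cortex irradiated 1 or 3. Nr4a2 had 0.0966 and 0.0669 without hippocampus irradiated 1 or 2, 0.0541, 0.0594 and 0.106 without prefrontal cortex irradiated 1, 2 or 3, and 0.0664 without a filter on low values. Nrn1 had 0.057, 0.085 and 0.12 without hippocampus irradiated 1, 2 or 3, 0.0873 and 0.126 without prefrontal cortex irradiated 1 or 3, and 0.0717 with equal totals.

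**Figure D4:**
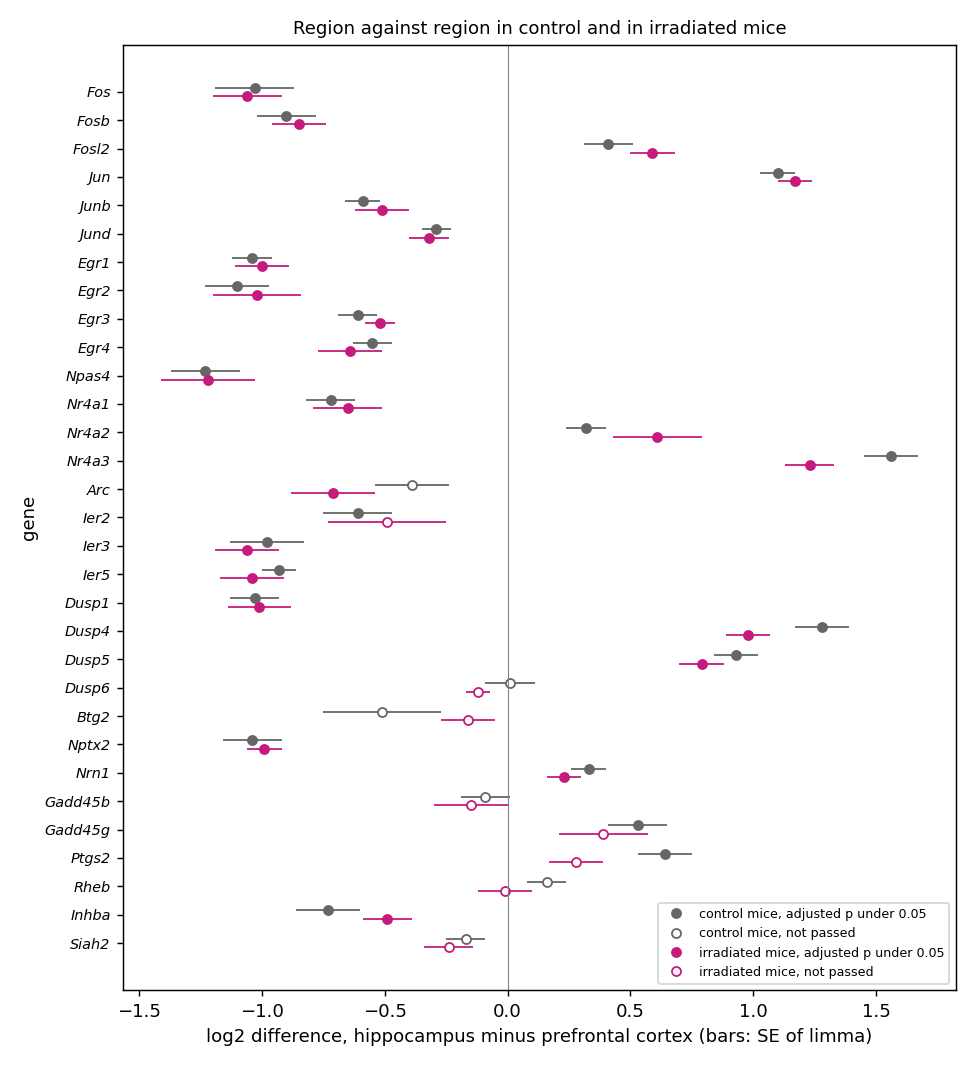
Log2 difference between hippocampus and prefrontal cortex for the 31 members tested, in control (grey) and irradiated (magenta) mice, with the SE of limma as bars, and filled points where the adjusted p was under 0.05. Nr4a3, Dusp4 and Jun lie farthest to the right and Npas4, Egr2 and Fos are among those farthest to the left in control mice, and 29 of the 31 members have the same sign in both treatments.

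The dissections also differed in markers of cell types. The 10 striatal markers summed to 82.3 to 130 FPKM in hippocampus and to 840 to 1095 FPKM in prefrontal cortex. Neuronal markers were lower in every hippocampal library than in every cortical one, at 2657 FPKM or less against 3076 FPKM or more. In control mice all 9 choroid plexus markers, 7 of 8 oligodendrocyte markers and 6 of 8 astrocyte markers were called higher in hippocampus. Of 10 endothelial markers 7 were called lower there, and 0 in irradiated mice. Of all genes 15.7% were called higher and 14.6% lower in control mice. The part of these shifts in the region differences was not tested.

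A list of 25 other activity-induced genes was chosen with earlier results of these data known, so its counts are a description and no test of a shift. Of the 25, 24 were tested in hippocampus, and 23 had positive differences between irradiated and control mice, with a median of 0.10, where 47% of all genes were positive. None was called, and 4 were higher at an unadjusted p under 0.05, where 4.7% of all genes were: Per1, Cyr61, Klf2 and Bhlhe40. In prefrontal cortex 19 of 25 were positive, with a median of 0.15, 0 were called and 9 were higher at an unadjusted p under 0.05. Of all genes 51.2% were positive and 2.44% higher at that level. Bhlhe40, a repressor of the clock and a target of activity, stood there at 51.1, 60.3 and 58.5 FPKM in irradiated and 36.1, 42.0 and 39.9 FPKM in control mice. All irradiated values lay above all controls, and the difference was 0.51 ± 0.09 (limma, adjusted p = 0.177). Klf2 and Klf4, factors also abundant in endothelium, differed by 0.59 ± 0.12 and 0.46 ± 0.13 (limma, adjusted p = 0.325 and 0.468) beside the higher endothelial sums above. Klf4 met the filter on level only through irradiated mice, at 1.44, 1.36 and 2.05 FPKM against 0.792, 0.903 and 0.98 FPKM in controls.

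Between the regions of control mice, 2 of 24 tested genes of that list were higher in hippocampus, the small GTPase Rasd1 (2.34 ± 0.17) and the growth factor Bdnf (0.75 ± 0.08), and 12 were lower, with a median of -0.25, where 15.7% of all genes were higher and 14.6% lower. Of 24 genes that carry the signal to immediate early genes (CREB, SRF, MEF2 factors, MAP kinases, glutamate receptors and calcium channels), 0 were called between irradiated and control mice in either region. In control mice 2 of them were higher and 5 lower in hippocampus, a share near the 30.3% of all genes called, the latter including Mef2c (-2.17 ± 0.11), Camk4 (-0.92 ± 0.07) and Rps6ka3 (-0.73 ± 0.08), with limma adjusted p-values from 1.81e-06 to 0.000134.

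Mice of a group differed from each other in many members at once, a pattern chosen after the values were seen. Irradiated mouse 1 had the highest of 3 values in 18 of 30 members in hippocampus, against 23.9% of all genes, and in 24 of 30 in prefrontal cortex, against 30.4% of all genes. It was highest in both regions for 16 of 30, Fos, Fosb, Junb, Jund, Egr1, Egr4, Npas4, Nr4a2, Nr4a3 and Arc among them, where 9.56% of all genes were. Control mouse 1 was highest in both regions for 10 of 30, against 18.2% of all genes. Irradiated mouse 3 was lowest in hippocampus for 19 of 30 members, against 32.5% of all genes, and control mouse 3 was lowest in prefrontal cortex for 17 of 30, against 29.2% of all genes. Deviations of the members from their group mean had, in prefrontal cortex, a median of 0.17 in irradiated mouse 1, -0.10 in irradiated mouse 3, 0.09 in control mouse 1 and -0.10 in control mouse 3, so that mice of both treatments deviated. Nothing in the sources used here gives the order of dissection or the handling of the mice.

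**Figure D5:**
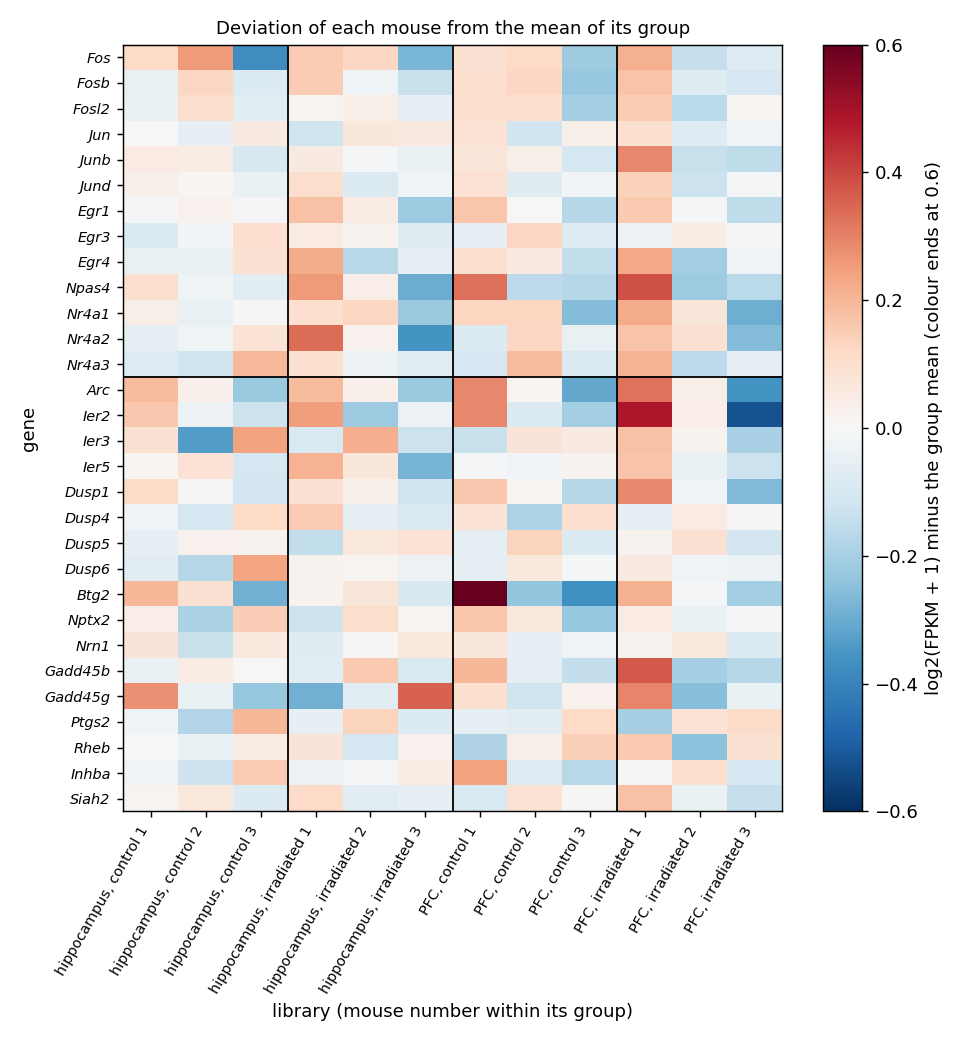
Deviation of log2(FPKM + 1) from the group mean for 30 members (rows, transcription factors above the line) in each of the 12 libraries (columns, PFC standing for prefrontal cortex), red above and blue below the mean. Irradiated mouse 1 is red in most rows in both regions, and Btg2 in prefrontal cortex control 1 exceeds the end of the colour scale.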

How the data were processed

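Total RNA of 12 mouse brain samples was extracted with Trizol and made into strand-marking libraries with the NEBNext Ultra II Directional kit, per the labels' protocols. Per the submitters' processing notes, the aligner TopHat and the build mm10 were used. The deposited tables hold 1 value per gene and name no unit. The authors' values were taken as FPKM because they were not whole, their sums differed between libraries (381417 to 435534), and value times transcript length summed to 1.20 to 1.25 M (mega). RPKM would look the same. The sources used here do not give the counting tool, the annotation or the use of strand, so Jun, Junb, Jund, Fosl1, Atf3, Dusp1, Dusp5, Nrn1, Pim1 and Inhba, which overlap genes on the other strand in GENCODE M21, may share fragments with them. Each FPKM depends on the total of its library.

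Log2(FPKM + 1) was compared with limma-trend (limma 3.58.1, R 4.3.3) over genes averaging 1 FPKM or more in the libraries compared, with 2-sided tests, Benjamini-Hochberg adjustment over all genes tested and a threshold of 0.05. The pipeline was tested on simulated data. Comparisons were irradiated against control in each region, the difference of these effects, their mean per mouse, and region against region in each treatment. The difference of effects was the interaction of region and treatment over all 12 libraries, without a term for the mouse. The fit with the mouse as a block was an alternative. Depth was estimated from the step that 1 fragment adds to low values, and gives no counting error. Groups came from the titles.

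Members and lists were chosen with earlier results of these data known. Every library is given for members whose irradiated and control libraries did not overlap in a region, for the 5 with the largest region difference in control mice, and for Fos, Egr1, Arc, Npas4, Junb and Nr4a1. Lists are described by counts, the median and up to 4 genes of smallest p.

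Titles number the mice, and by the titles same-numbered regions of a treatment come from 1 mouse. The mean per mouse, the region differences within a mouse and the region fits with the mouse as a block rest on this numbering. Between the regions of a mouse, deviations from group means had correlations of 0.174, 0.256 and 0.3 (irradiated) and 0.29, -0.00601 and 0.0542 (control). For the hippocampus of control mice 2 and 3, the best match in prefrontal cortex was a control of another number. Across treatments the numbers belong to different mice, and correlations were 0.141, 0.12 and 0.117 in prefrontal cortex and 0.103, -0.0175 and -0.16 in hippocampus. In prefrontal cortex the same number was the best match each time. Alternatives were another pseudocount, no filter, other scalings, robust moderation, a fit over 12 libraries, the replicate block and leaving out each library.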

Additional observations from a re-analysis of the deposited data

How the results depend on the processing

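No member was called between irradiated and control mice, in either region, in their mean or in their difference, under any of the alternatives run. Between the regions 24 to 27 members were called in control mice and 20 to 25 in irradiated mice. With the mouse as a replicate block the region calls were 27 and 25, and the block gave 0 calls for irradiation in both regions. Of the named members' irradiation differences, recomputed under each alternative, 122 values kept their sign in hippocampus and 8 did not, and 158 and 10 in prefrontal cortex.

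Signs turned for members near 0. With equal totals the hippocampal difference was 0.06 for Junb and 0.01 for Npas4, and the cortical one 0.01 for Npas4 and 0.01 for Nr4a1. Leaving out 1 replicate in turn gave, in hippocampus, -0.04 to 0.29 for Fos, -0.17 to 0.11 for Npas4 and -0.05 to 0.12 for Nr4a1, and in prefrontal cortex -0.24 to 0.11 for Npas4, -0.19 to 0.08 for Nr4a1 and -0.04 to 0.30 for Arc. The cause was not tested.

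There were 3 mice a group and no read counts were used, and an absent call does not show that levels were equal. Maff, Atf3 and Fosl1 rest on few fragments. Values are relative to each library's total.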

Other observations

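Clock output genes were also examined, since several respond to activity and the sources used here give no hour of tissue collection. This list too was chosen with earlier results of these data known. In hippocampus 11 of 12 had positive differences between irradiated and control mice, with a median of 0.07, and 4 were higher at an unadjusted p under 0.05, while 0 were called. Of all genes there 47% were positive and 4.7% higher at that level. Per2, a repressor of the clock, stood at 6.63, 6.60 and 6.46 FPKM in irradiated and 3.69, 4.10 and 5.40 FPKM in control hippocampus, a difference of 0.50 ± 0.11 (limma, adjusted p = 0.423). All irradiated values lay above all controls. In prefrontal cortex 9 of 12 were positive, with a median of 0.08, where 51.2% of all genes were positive. Per2 differed there by 0.35 ± 0.12 (limma, adjusted p = 0.554). Between the regions of control mice 9 of 12 were lower in hippocampus and 0 higher, where 14.6% of all genes were lower and 15.7% higher. Of these, Hlf, a clock-controlled transcription factor, was at -0.63 ± 0.08 (adjusted p = 0.000333).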
